A study of Mus musculus with 14 samples.

Results

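The genes described here are 9 genes of antigen presentation by MHC class II, measured by RNA-seq in group 2 innate lymphoid cells (ILC2s) from mouse lung. They were taken by name and each was found in both the raw count and the TPM tables, where they are 9 of 53278 genes. H2-Aa, H2-Ab1 and H2-Eb1 encode chains of the class II molecules themselves, H2-DMa and H2-DMb1 the peptide exchange factor H2-M, and Cd74 the invariant chain. Ciita encodes the class II transactivator, and Cd80 and Cd86 encode the B7 ligands of CD28 and CTLA-4. The study comprised 14 libraries from 2 experiments, with about 15000 sorted cells per culture. The design text describes cells sorted from individual female mice, while the legends of the study describe sorting samples of pooled animals, so a library may hold 1 mouse or more. In the stimulation experiment, ILC2s of B6 mice were left unstimulated (Unstimulated, n = 4) or given IL-33 at 20 ng/mL for 24 h (IL-33 stimulated, n = 4). In the Blimp-1 experiment, ILC2s of ControlIL7RaCre mice (Control, n = 3) and of Blimp-1IL7RaCre mice (Blimp-1-deficient, n = 3) were cultured for 72 h with IL-33 and IL-25, both at 20 ng/mL. The RNA-seq methods of the study also name IL-2 in that culture. The general culture methods of the study name IL-2 at 20 ng/mL for ILC2s, so the stimulation cultures may have held it too. Cre was driven by the Il7r gene and was carried by the Controls too. It deletes in all ILC subsets and in T, B and NK cells, so the Blimp-1-deficient ILC2s came from mice in which Blimp-1 was also deleted in other lymphocytes. ILC2s were sorted as live, lineage-, CD90.2+ and CD3- cells. The Unstimulated cells are described as cultured without IL-33 in the design and Methods, and as ex vivo elsewhere. If they were not cultured, effects of culture and of IL-33 cannot be told apart.

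Class II molecules carry peptides from the endosomes to the cell surface, where CD4 T cells recognise them. The alpha and beta chains are assembled with the invariant chain, which blocks the peptide groove and directs them to endosomes. Cathepsins and related proteases then degrade the invariant chain, H2-M exchanges its remnant for antigenic peptides, and H2-O restrains H2-M. CIITA does not bind DNA itself. It is recruited to an X box and a Y box upstream of class II genes, which are bound by the RFX complex and NF-Y, and it is inducible by interferon gamma through JAK kinases. ILC2s are known to present antigen to T cells at a low level, and Blimp-1, encoded by Prdm1, is known as a repressor of Ciita in plasma cells.

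Promoter windows were matched in RefSeq (GRCm38.p6) for 5 of the 9 genes, H2-Aa, H2-Eb1, H2-DMa, H2-DMb1 and Cd80. H2-Ab1, Cd74, Ciita and Cd86 had no entry. The sequences were looked at because class II genes are known to share this arrangement, and the letters searched were chosen after the windows had been read. The letters GNAAC, from the core of the X box, were sought with GATTGG, the Y box, 15 to 35 bases downstream of them on the same strand, in windows from 250 bases before to 50 after the start and on both strands. The pair was present in 396 of 32851 windows, or 1.21%. GNAAC alone was in 84.8% of windows and GATTGG alone in 16.1%. The stretches below show the pair in the 2 members in which it lies outside annotated exons, and in H2-Ob and H2-Eb2 for comparison, each 5′ to 3′ on the strand of the gene with GNAAC and GATTGG in capitals.
H2-Aa: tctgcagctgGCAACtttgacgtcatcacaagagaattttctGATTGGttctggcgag
H2-Eb1: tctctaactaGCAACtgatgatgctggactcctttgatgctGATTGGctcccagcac
H2-Ob: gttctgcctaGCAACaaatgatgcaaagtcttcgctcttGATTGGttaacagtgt
H2-Eb2: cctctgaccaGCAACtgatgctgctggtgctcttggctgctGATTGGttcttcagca
These lie at chr17:34287857-34287914 on the minus strand for H2-Aa, and on the plus strand at chr17:34305766-34305822 for H2-Eb1, chr17:34238808-34238862 for H2-Ob and chr17:34325533-34325589 for H2-Eb2. The letters were 27 bases apart in H2-Aa, 26 in H2-Eb1 and H2-Eb2, and 24 in H2-Ob. H2-DMb1 and H2-Oa held the pair as well, each with 27 bases between. Neither window of H2-DMa held it, nor did those of Cd80 and H2-DMb2, which says only that these letters are not in those windows.

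In the GENCODE M21 annotation of GRCm38, 5 members lie within the class II region of chromosome 17. H2-DMa is at chr17:34119541-34139101, H2-DMb1 at chr17:34153072-34160230, H2-Ab1 at chr17:34257689-34269419, H2-Aa at chr17:34282744-34287823 and H2-Eb1 at chr17:34305867-34316674. H2-Aa is on the minus strand and the other 4 are on the plus strand. Ciita (chr16:10480059-10528418), Cd80 (chr16:38455561-38496335) and Cd74 (chr18:60803848-60812652) are on the plus strand, and Cd86 (chr16:36603869-36666081) is on the minus strand. The values are sums over exons. Of all stretches of 75 bases in H2-DMb1 transcripts, 15.8% also occur in other genes, mostly in H2-DMb2, so reads of this pair may be split. Brd2 overlaps 10.4% of the exon bases of H2-DMa, and Dexi, which runs antisense to Ciita, 3.45% of those of Ciita. The library kits, SMART-seq v4 with Nextera XT, do not mark strand, so reads in these overlaps cannot be told apart.

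The stimulation libraries held 10470125 to 32849428 counts each and the Blimp-1 libraries 13570188 to 76448945. The shallowest library of each experiment stood apart. IL-33 stimulated replicate 3 had 10470125 counts, so that 3 counts correspond to 0.296 CPM (counts scaled to 1e+06 in a library after TMM normalization). Control replicate 2 had 76.8% of its counts on 7 loci, mostly ribosomal, against 0.262% to 0.941% in the other libraries of that experiment, and 3 counts correspond to 0.731 CPM. Each comparison is therefore given with all libraries and without that library. All 12 ILC2 markers examined, among them Gata3 and Il1rl1, had more than 3 counts in every library. After IL-33, 4 of them were higher and 7 lower, beside 16.2% and 16.1% of all genes tested. The 4 were Il13 (log2 fold change 6.68, adjusted p = 3.8e-05), Il5 (4.98, adjusted p = 1.12e-05), Areg (3.36, adjusted p = 5.25e-05) and Il2ra (0.58, adjusted p = 0.0271). The 7 included Gata3 (-0.69, adjusted p = 0.00273) and Il1rl1 (-0.87, adjusted p = 0.000894). In the Blimp-1 comparison 0 passed with all libraries. Without Control replicate 2, 3 were higher and 4 lower, beside 8.25% and 5.72% of all genes tested. Prdm1, the targeted gene, had 75.2, 92.8 and 74.0 CPM among Controls 1 to 3 and 14.6, 11.5 and 11.4 among the deficient libraries, with a log2 fold change of -2.68 (adjusted p = 0.00441).

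Cd74 had the highest level of the 9 genes in Unstimulated, IL-33 stimulated and Blimp-1-deficient ILC2s, and Ciita and Cd86 the lowest in every group. Levels between genes are given as TPM, which allow for gene length, recomputed without the 7 loci. Cd74 stood at 30.0 ± 17.1 TPM (SD, n = 4) in Unstimulated and 75.9 ± 15.7 (SD, n = 4) in IL-33 stimulated ILC2s. It stood at 19.6 ± 4.45 (SD, n = 3) in Control and 90.8 ± 54.7 (SD, n = 3) in Blimp-1-deficient ILC2s. Below it in Unstimulated ILC2s came H2-DMa (10.1 ± 2.69 TPM), H2-Ab1 (8.10 ± 3.65), H2-Eb1 (5.77 ± 3.03), H2-Aa (5.20 ± 2.76), H2-DMb1 (3.45 ± 1.49) and Cd80 (1.87 ± 0.866). Neighbours in this order differed by less than the larger of their SDs, except H2-DMb1 and Cd80. Ciita stood at 0.615 ± 0.125 TPM and Cd86 at 0.342 ± 0.0425, and their ranges did not overlap.

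The order changed with the group. H2-Ab1 (18.7 ± 2.26 TPM) stood second in IL-33 stimulated ILC2s, above H2-Eb1 (12.3 ± 4.75), H2-Aa (10.7 ± 4.46) and H2-DMa (9.86 ± 4.04). In Controls, Cd74 and H2-DMa (16.4 ± 4.53 TPM) differed by less than their SDs, and their order turned without Control replicate 2 (17.8 against 18.9 TPM) and in the TPM as deposited (12.1 against 12.6). Both stood above H2-Ab1 (11.6 ± 3.65) and Cd80 (8.57 ± 1.82), while H2-Aa had only 1.35 ± 0.299 TPM there. H2-Ab1 was second in Blimp-1-deficient ILC2s at 26.3 ± 7.26 TPM, followed by H2-DMa (18.8 ± 4.90), H2-Eb1 (17.6 ± 10.7) and Cd80 (17.0 ± 3.23), which differed by less than their SDs. Levels of the 2 experiments are set side by side without a test, since genotype, cytokines and culture time all differ between them.

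**Figure D1:**
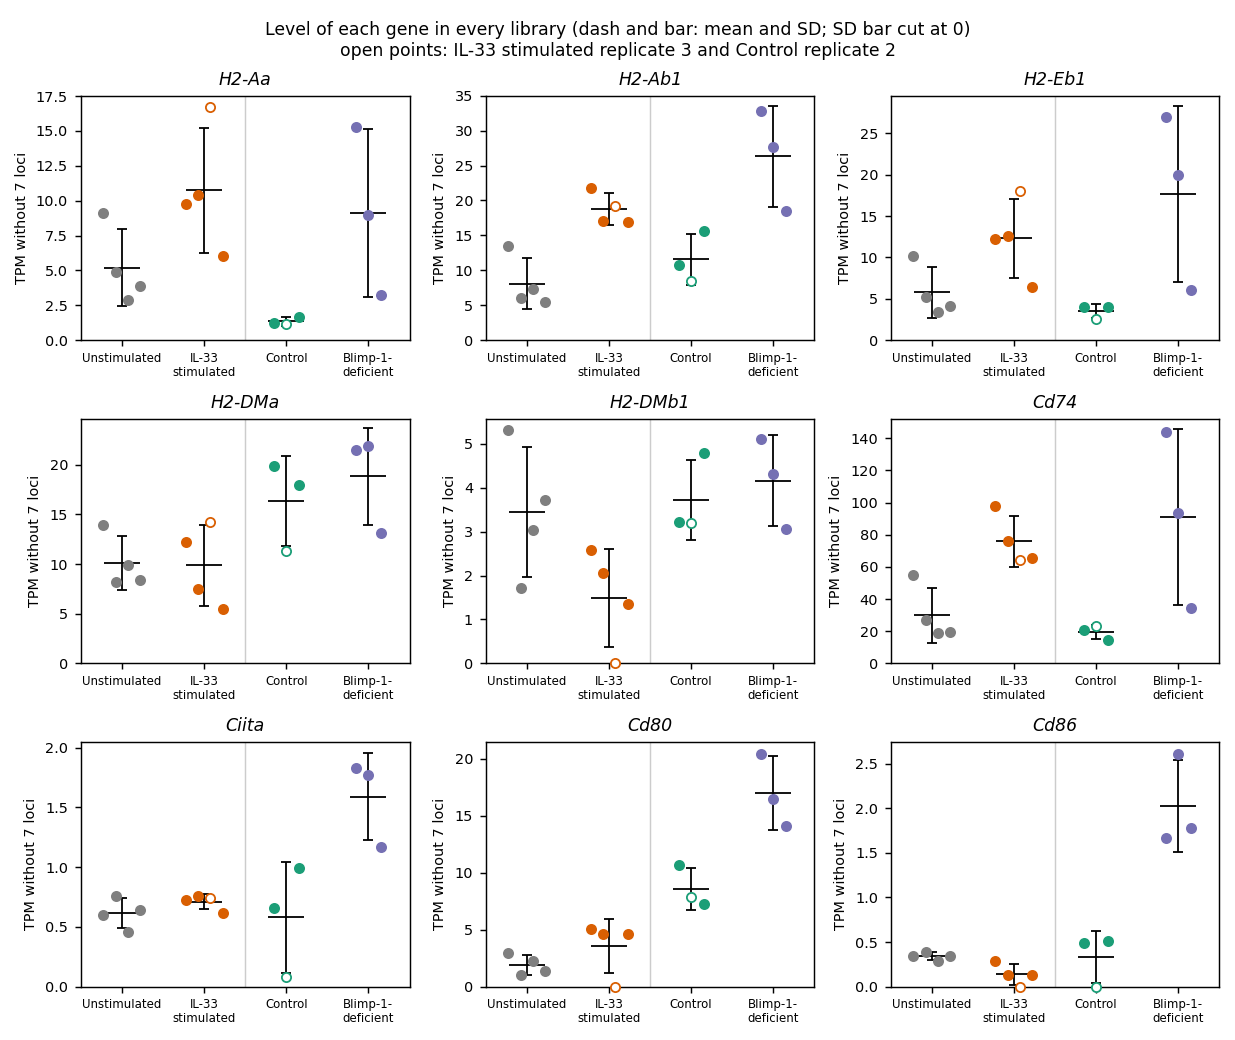
Level of each of the 9 genes in every library, as TPM recomputed without 7 loci (vertical axis, from 0), in the 4 groups (horizontal axis); points are libraries, dashes and bars are the mean and SD, and open points are IL-33 stimulated replicate 3 and Control replicate 2. Cd74 reached 64.0 to 98.1 TPM in the IL-33 stimulated libraries, above the 18.7 to 54.96 of the Unstimulated ones, while H2-DMa overlapped between those groups.

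After IL-33, the invariant chain and 2 of the 3 genes for class II chains rose 2.60-fold to 3.10-fold, while H2-M, the transactivator and the B7 ligands did not pass the test. Of the 9 members 3 were higher and 0 were lower (edgeR, adjusted p below 0.05). Among all 15466 genes tested, 16.2% were higher and 16.1% lower, 32.3% in all. The median log2 fold change was 1.25 over the members and 0.06 over all genes tested. A change in the RNA of these bulk cultures may come from more cells that express a gene or from more RNA per cell, and these cannot be told apart.

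H2-Ab1, the beta chain of I-A, had 6.60, 2.78, 3.40 and 2.52 CPM in Unstimulated replicates 1 to 4 and 12.2, 9.78, 11.1 and 10.3 CPM in IL-33 stimulated replicates 1 to 4. All stimulated libraries lay above all Unstimulated ones. H2-Ab1 rose 2.84-fold (95% interval 1.69 to 4.76, adjusted p = 0.00882).

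H2-Aa, the alpha chain of I-A, had 5.14, 2.58, 1.53 and 2.02 CPM in Unstimulated and 6.28, 6.84, 11.1 and 4.18 CPM in IL-33 stimulated replicates 1 to 4. The groups overlapped, because Unstimulated replicate 1 was above stimulated replicate 4. Its log2 fold change was 1.33 (SE 0.45) and did not pass (adjusted p = 0.0548). It passed without IL-33 stimulated replicate 3, at 1.03 (adjusted p = 0.0337), and without Unstimulated replicate 1, at 1.88 (adjusted p = 0.018).

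H2-Eb1, the beta chain of I-E, had 3.61, 1.75, 1.15 and 1.39 CPM in Unstimulated and 4.96, 5.22, 7.58 and 2.83 CPM in IL-33 stimulated replicates. Here too, Unstimulated replicate 1 was above stimulated replicate 4. H2-Eb1 rose 2.60-fold (95% interval 1.27 to 5.31, adjusted p = 0.0477). The call was lost without any 1 of Unstimulated replicates 2, 3 and 4 (adjusted p = 0.117, 0.119 and 0.119) or of stimulated replicates 1 and 2 (adjusted p = 0.0836 and 0.0917). The partner chain of H2-Eb1 is annotated as H2-Ea-ps, which had 0 counts in all 14 libraries, and mice of the B6 background are known to lack a functional copy.

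Cd74, the invariant chain and also a receptor of the cytokine MIF, had 23.2, 10.6, 7.44 and 7.66 CPM in Unstimulated and 47.5, 37.5, 32.0 and 34.3 CPM in IL-33 stimulated replicates. The groups did not overlap, and Unstimulated replicate 1 stood well above the other 3. Cd74 rose 3.10-fold (95% interval 1.69 to 5.68, adjusted p = 0.0126), and by 2.20 on the log2 scale without that library (adjusted p = 0.00039).

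Neither gene of H2-M passed the test after IL-33. H2-DMa had 6.88, 3.75, 4.59 and 3.84 CPM in Unstimulated and 6.87, 4.31, 8.27 and 3.36 CPM in IL-33 stimulated replicates, and the groups overlapped throughout. Its fold change was 1.19 (95% interval 0.688 to 2.07, adjusted p = 0.59). On the TPM scale it was at -0.10 on log2(TPM + 1), above the median of -0.25 over all genes tested in that setting. H2-DMb1 had 2.36, 0.716, 1.27 and 1.54 CPM in Unstimulated and 1.31, 1.07, 0 and 0.743 CPM in stimulated replicates, with a fold change of 0.554 (95% interval 0.162 to 1.89, adjusted p = 0.414).

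Ciita had 0.938, 1.12, 0.680 and 0.945 CPM in Unstimulated and 1.31, 1.39, 1.38 and 1.20 CPM in IL-33 stimulated replicates, from 14 to 43 counts per library. Every stimulated library lay above every Unstimulated one. The fold change of 1.43 (95% interval 0.974 to 2.1) nevertheless did not pass (adjusted p = 0.133), and it did not pass without any 1 library either (adjusted p from 0.118 to 0.291).

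The B7 ligands took opposite signs, and neither passed with all libraries. Cd80 had 1.49, 0.487, 1.06 and 0.630 CPM in Unstimulated and 2.96, 2.72, 0 and 2.90 CPM in IL-33 stimulated replicates. The stimulated replicates 1, 2 and 4 were close to each other and above all Unstimulated libraries, and replicate 3 had 0 counts. The log2 fold change of Cd80 was 1.25 (SE 0.91, adjusted p = 0.318) with that library and 1.66 (SE 0.34, adjusted p = 0.00211) without it. Cd86 had 0.382, 0.401, 0.297 and 0.347 CPM in Unstimulated and 0.361, 0.162, 0 and 0.177 CPM in stimulated replicates, which are at most 14 counts in a library. Its fold change was 0.550 (95% interval 0.214 to 1.41, adjusted p = 0.285).

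Without IL-33 stimulated replicate 3, 5 of the 9 members were higher and 0 lower, where 27.5% of all genes tested were higher and 29.7% lower, 57.2% in all. The 5 were H2-Aa, H2-Ab1, H2-Eb1, Cd74 and Cd80. In that comparison the fold changes were 2.82 for H2-Ab1 (adjusted p = 0.00166), 3.25 for Cd74 (adjusted p = 0.00203), 3.15 for Cd80 (adjusted p = 0.00211), 2.19 for H2-Eb1 (adjusted p = 0.0264) and 2.04 for H2-Aa (adjusted p = 0.0337). H2-DMa was at 1.02 (95% interval 0.657 to 1.58), Ciita at 1.41 (0.956 to 2.07) and Cd86 at 0.656 (0.346 to 1.24), none of which passed.

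**Figure D2:**
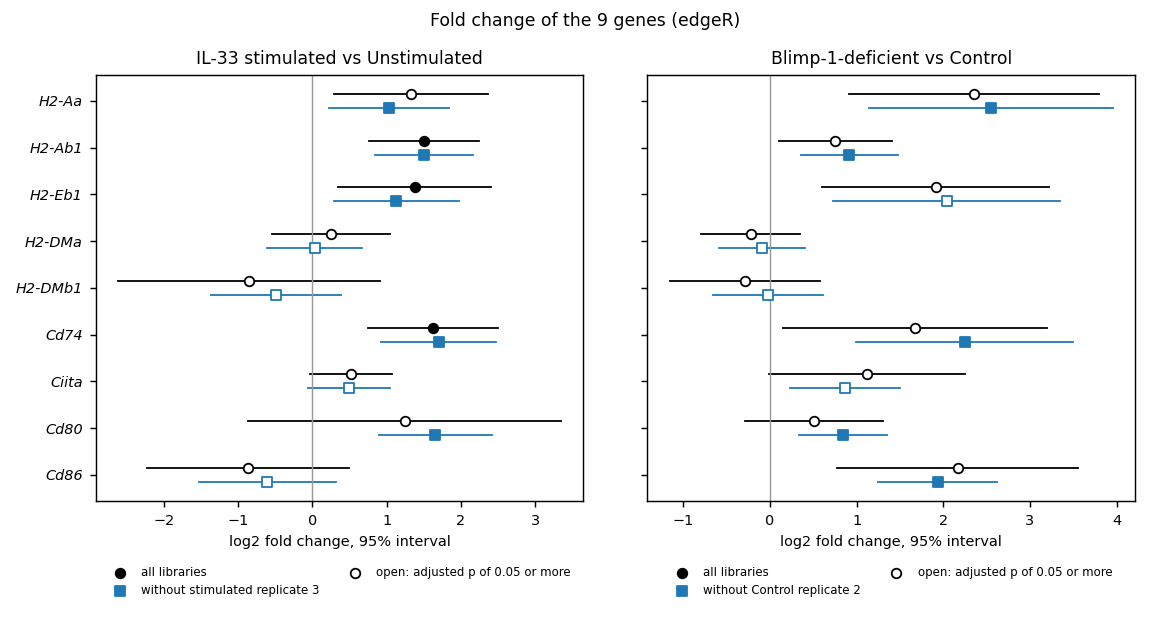
Log2 fold change (horizontal axis) with its 95% interval from edgeR for the 9 genes (vertical axis), for IL-33 stimulated against Unstimulated on the left and Blimp-1-deficient against Control on the right; circles use all libraries, squares leave out IL-33 stimulated replicate 3 or Control replicate 2, and filled symbols have an adjusted p below 0.05. Left, H2-Ab1, H2-Eb1 and Cd74 are filled in both settings and H2-DMa lies near 0; right, every circle is open and 5 squares are filled.

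Ratios of counts within a library do not depend on the scaling between libraries, and 4 of them were chosen after seeing the data. There were 3.38, 2.82, 1.62 and 1.99 counts of Cd74 per count of H2-DMa in Unstimulated replicates 1 to 4 and 6.91, 8.71, 3.87 and 10.2 in IL-33 stimulated replicates 1 to 4. The ratio was higher in 4 of 4 stimulated libraries than in any Unstimulated one, by 1.57 on the log2 scale (exact permutation test, two-sided p = 0.0286, the smallest that 4 against 4 can give, and 0.0571 after adjustment over the 4 ratios). H2-Ab1 to H2-DMa ran from 0.656 to 0.960 in Unstimulated and from 1.35 to 3.06 in stimulated libraries, a difference of 1.39 (exact p = 0.0286, adjusted 0.0571). Neither ratio passed 0.05 after adjustment. Without stimulated replicate 3 the differences were 1.85 and 1.59 (exact p = 0.0286 and adjusted 0.0381 for each), a setting chosen after seeing the data.

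Cd74 to Ciita was 24.8, 9.46, 10.9 and 8.10 in Unstimulated and 36.1, 26.9, 23.2 and 28.5 after IL-33, which overlapped at Unstimulated replicate 1 (exact permutation p = 0.0571, adjusted 0.0762). There were 1.21 to 3.91 counts of Cd80 per count of Cd86 in Unstimulated libraries and 8.18, 16.8 and 16.4 in stimulated replicates 1, 2 and 4. Replicate 3 had no count of either gene. The tests of these ratios add 0.5 to both counts, and with that the groups overlapped (difference 1.51 on the log2 scale, exact permutation p = 0.171, adjusted 0.171). Without replicate 3 the difference was 2.41 with no overlap (exact permutation p = 0.0286, adjusted 0.0381).

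**Figure D3:**
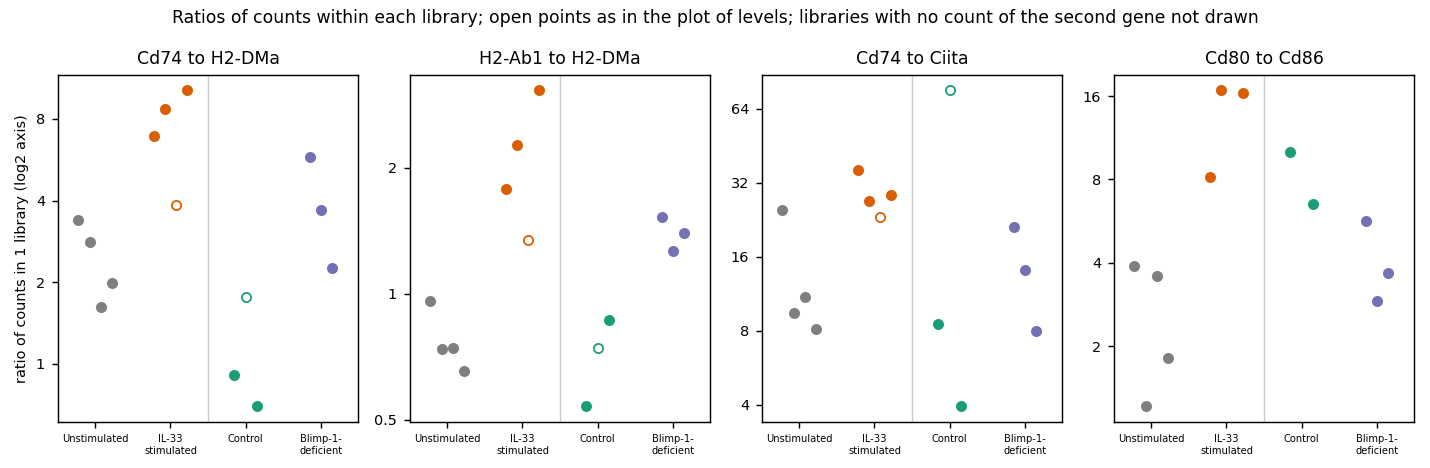
Ratio of the counts of a pair of genes within each library (vertical axes, log2 scale) in the 4 groups (horizontal axes), 1 point per library, with open points for IL-33 stimulated replicate 3 and Control replicate 2; libraries without a count of the second gene are not drawn. Cd74 to H2-DMa ran from 1.62 to 3.38 in Unstimulated and from 3.87 to 10.2 in IL-33 stimulated libraries, and from 0.700 to 1.77 in Control and from 2.26 to 5.77 in Blimp-1-deficient libraries.

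The other genes of the pathway were taken from 7 lists with 52 genes, of which 45 could be tested after IL-33. Of these 10 were higher and 10 lower, where 16.2% and 16.1% of all genes tested were. Without IL-33 stimulated replicate 3 it was 14 and 15 of 46, beside 27.5% and 29.7% of all genes, so these counts lie near the general share. H2-Oa, a chain of the H2-M inhibitor H2-O, fell in all 4 stimulated libraries to 0.310 of the Unstimulated level (adjusted p = 0.00331). It had 21.2, 15.6, 17.9 and 14.1 CPM in Unstimulated and 6.97, 6.41, 2.76 and 5.10 CPM in stimulated replicates, with no overlap. BC051537 overlaps 22.8% of the exon bases of H2-Oa. H2-Ob, the partner chain, had 6 to 25 counts in Unstimulated and 0 to 5 in stimulated libraries, and could be tested only without stimulated replicate 3, where it fell (log2 fold change -2.17, adjusted p = 0.00363).

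Of 9 genes of antigen processing, 0 were higher and 3 lower, beside 16.2% and 16.1% of all genes tested, 32.3% in all. Ctse changed by -1.19 on the log2 scale (adjusted p = 0.000508), Ctsd by -0.92 (adjusted p = 0.00106) and Ctsb by -0.62 (adjusted p = 0.00138). Ctss, known as the main protease of the invariant chain in many presenting cells, was at 0.40 (adjusted p = 0.207). Of the 7 transcription factors, 2 were lower, Nfya of the NF-Y complex (-0.44, adjusted p = 0.034) and Creb1 (-0.38, adjusted p = 0.00219), while Rfx5 was at 0.17 (adjusted p = 0.449) and passed without IL-33 stimulated replicate 3 (0.30, adjusted p = 0.0163). Of the 3 genes of turnover, Cd83, which protects class II and CD86 from degradation, rose 4.74-fold (adjusted p = 0.00312), and March8, a ubiquitin ligase, fell (-0.42, adjusted p = 0.0339).

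Among the 12 genes from interferon gamma to CIITA, 3 were higher and 1 lower. Ifng rose by 3.51 on the log2 scale (SE 0.76, adjusted p = 0.00924), from 0.172 to 0.972 CPM in Unstimulated to 1.24 to 11.7 CPM in stimulated libraries. Irf4, a transcription factor of activated lymphocytes, rose by 2.42 (adjusted p = 0.000401) and Jak2 by 1.54 (adjusted p = 3.06e-05). Ifngr1, the ligand-binding chain of the receptor, fell by 1.66 (adjusted p = 0.000159). Irf1 (0.50) did not pass (adjusted p = 0.359).

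Of the 10 other costimulatory ligands, 8 could be tested, 4 were higher and 1 was lower. Tnfsf4, which encodes OX40L, rose 3.77-fold (adjusted p = 3.06e-05), Cd274 (PD-L1) 3.04-fold (adjusted p = 0.0041), Pdcd1lg2 (PD-L2) 2.83-fold (adjusted p = 0.000248) and Icam1 2.27-fold (adjusted p = 0.000843). Icosl, the ligand of ICOS, fell to 0.305 of its level (adjusted p = 0.000372). Among the 5 genes that link CD74 to MIF, Mif rose 2.98-fold (adjusted p = 0.000721) and Cd44, the signalling partner of CD74, 1.29-fold (adjusted p = 0.0253). Cxcr4, a further MIF receptor, fell by 0.99 on the log2 scale (adjusted p = 0.0144).

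**Figure D4:**
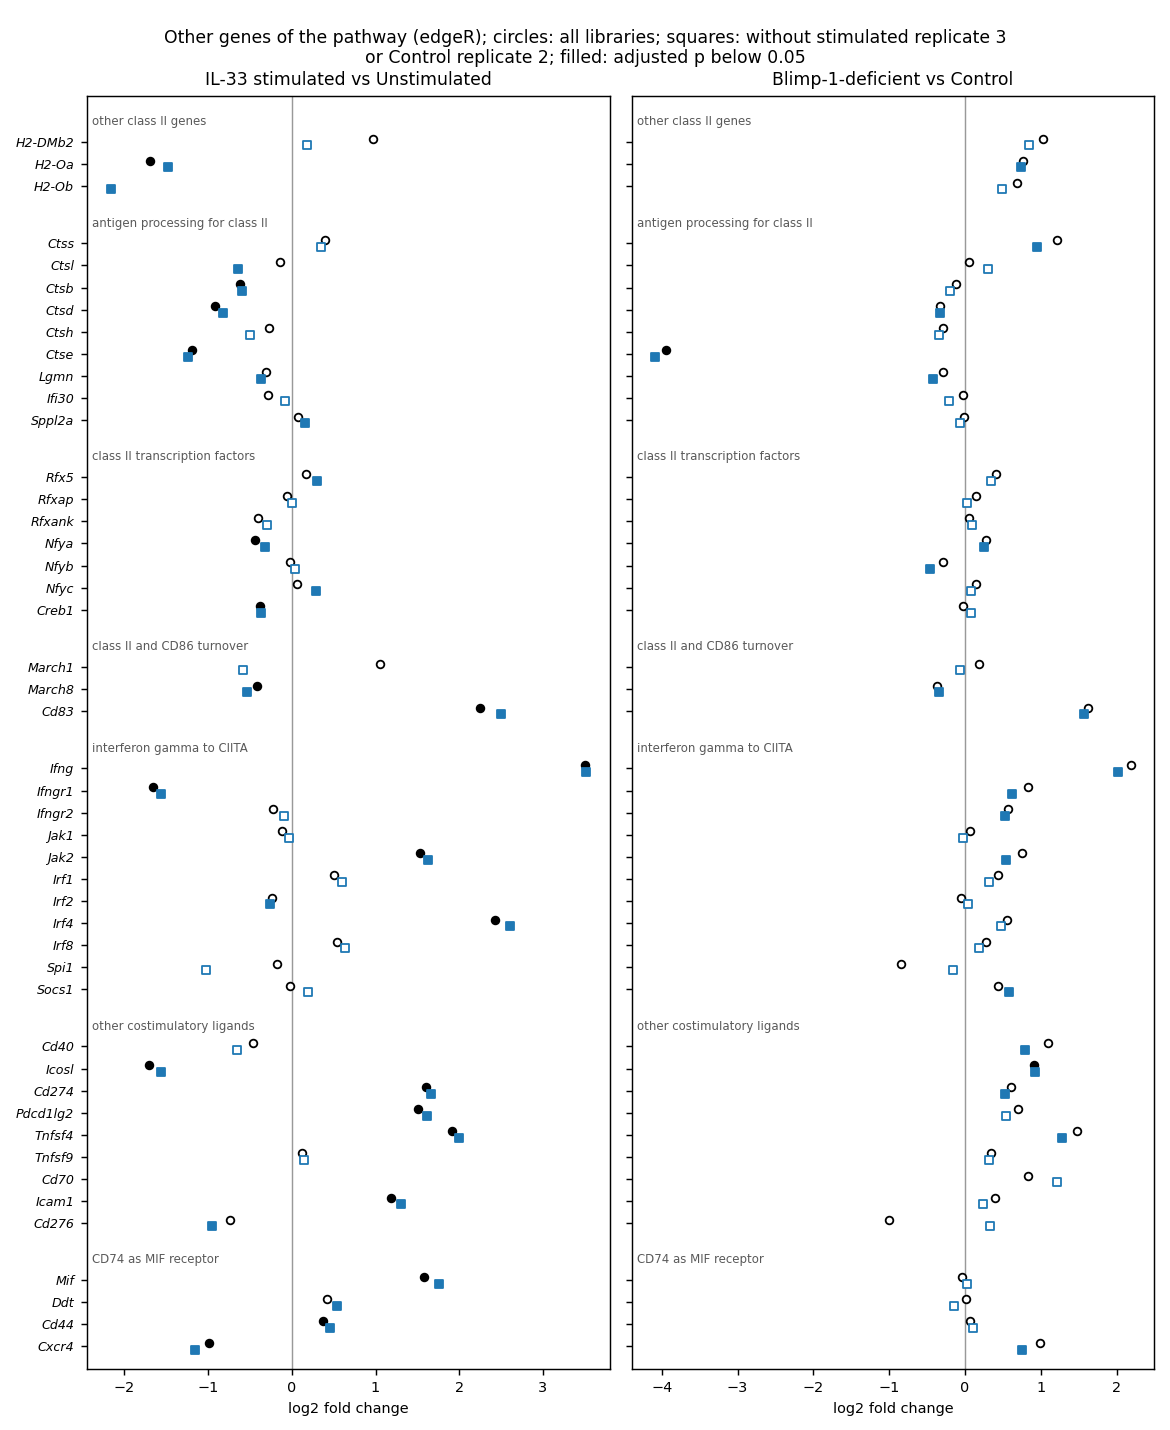
Log2 fold change from edgeR (horizontal axes) of the other genes of the pathway that could be tested, except 1 not shown (vertical axis, grouped by list), after IL-33 on the left and in Blimp-1-deficient against Control on the right; circles use all libraries, squares leave out IL-33 stimulated replicate 3 or Control replicate 2, and filled symbols have an adjusted p below 0.05. Icosl lies on the left of 0 after IL-33 (-1.71) and on the right in Blimp-1-deficient ILC2s (0.91), and Ctse lies farthest to the left in the Blimp-1 comparison (-3.94 with all libraries and -4.09 without Control replicate 2).

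In the Blimp-1 experiment, 0 of the 9 members passed with all 6 libraries, and 5 were higher when Control replicate 2 was left out. With all libraries 0.45% of the 17335 genes tested were higher and 0.306% lower by edgeR, 0.756% in all. At an unadjusted p below 0.05 there were 5 members, beside 11.9% of all genes tested. DESeq2 called 3 members higher, beside 3.22% of the genes to which it gave an adjusted p. Without Control replicate 2, 8.25% of 17968 genes were higher and 5.72% lower, 14% in all. The members called in that comparison were Cd74, H2-Aa, H2-Ab1, Cd80 and Cd86, and 0 were lower. The median log2 fold change of the members was 1.12 with all libraries and 0.92 without Control replicate 2, beside -0.02 and 0.01 over all genes tested.

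H2-Aa had 0.591, 1.22 and 0.803 CPM in Controls 1 to 3, the Control 2 value resting on 5 counts, and 6.55, 4.15 and 1.5 CPM in the deficient libraries 1 to 3. The groups did not overlap, but replicate 3 was much nearer the Controls than replicates 1 and 2. The log2 fold change was 2.35 (SE 0.60, adjusted p = 0.182) with all libraries and 2.55 (SE 0.60, adjusted p = 0.0341) without Control replicate 2.

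H2-Eb1 followed the same libraries, with 1.24, 1.70 and 1.19 CPM among Controls and 7.30, 5.86 and 1.77 among the deficient libraries. The groups did not overlap, but replicate 3 was close to Control replicate 2, the former from 171 and the latter from 7 counts. The log2 fold change was 1.91 (adjusted p = 0.224) with all libraries and 2.04 (SE 0.56, adjusted p = 0.0532) without Control replicate 2, so it passed in neither.

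H2-Ab1 had 4.59, 7.79 and 6.44 CPM among Controls and 12.3, 11.2 and 7.51 among the deficient libraries. Replicate 3 lay between Controls 2 and 3. The log2 fold change was 0.75 (SE 0.27, adjusted p = 0.341) and, without Control replicate 2, 0.92 (SE 0.24, adjusted p = 0.0467).

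Cd74 had 7.73, 18.5 and 5.22 CPM among Controls and 46.5, 32.7 and 12.2 among the deficient libraries. Blimp-1-deficient replicate 3 was below Control replicate 2, the library dominated by the 7 loci, and above both other Controls. The log2 fold change was 1.67 (SE 0.63, adjusted p = 0.37) with all libraries and 2.25 (SE 0.53, adjusted p = 0.0347) without Control replicate 2, which is a 4.75-fold rise (95% interval 1.99 to 11.3).

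Neither gene of H2-M passed with or without Control replicate 2. H2-DMa had 8.51, 10.5 and 7.46 CPM among Controls and 8.06, 8.89 and 5.38 among the deficient libraries, and its fold change without Control replicate 2 was 0.938 (95% interval 0.664 to 1.32, adjusted p = 0.804). H2-DMb1 had 1.24, 2.68 and 1.80 CPM among Controls and 1.74, 1.59 and 1.13 among the deficient libraries, with a fold change of 0.983 (95% interval 0.635 to 1.52, adjusted p = 0.963). The groups overlapped for both genes. With all libraries their log2 fold changes were -0.23 and -0.29, and with library size alone as scaling 0.34 and 0.32, below the median of 0.45 over all genes tested in that setting.

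Ciita had 0.904, 0.244 and 1.32 CPM among Controls, with 1 count in Control replicate 2, and 2.20, 2.31 and 1.53 among the deficient libraries. All Blimp-1-deficient libraries lay above all Controls. The log2 fold change was 1.12 (SE 0.47, adjusted p = 0.423) and, without Control replicate 2, 0.86 (SE 0.27, adjusted p = 0.0775), so Ciita passed in neither.

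Of the B7 ligands, Cd86 had the larger fold change and Cd80 the higher level. Cd86 had 0.470, 0 and 0.475 CPM among Controls and 1.40, 2.37 and 1.62 among the deficient libraries, without overlap, and 3 counts in Control replicate 2 would be 0.731 CPM. Without Control replicate 2 it rose 3.82-fold (95% interval 2.36 to 6.17, adjusted p = 0.00796), and with all libraries its log2 fold change was 2.17 (SE 0.58, adjusted p = 0.202). Cd80 had 4.71, 7.55 and 3.11 CPM among Controls and 7.96, 6.93 and 5.95 among the deficient libraries. Control replicate 2 lay among the Blimp-1-deficient libraries. Cd80 rose 1.79-fold (95% interval 1.26 to 2.54, adjusted p = 0.0448) without it, and with it the value was 0.50 on the log2 scale (adjusted p = 0.636).

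The same ratios were taken within the Blimp-1 libraries. Cd74 to H2-DMa was 0.908, 1.77 and 0.700 in Controls 1 to 3 and 5.77, 3.68 and 2.26 in Blimp-1-deficient replicates 1 to 3, so the groups did not overlap with Control replicate 2 included. H2-Ab1 to H2-DMa ran from 0.540 to 0.864 and from 1.26 to 1.52. Both gave an exact permutation p of 0.1, the smallest that 3 against 3 can give, and 0.133 after adjustment over the 4 ratios. Cd74 to Ciita overlapped between the groups, at 8.55, 76 and 3.95 in Controls 1 to 3 and 21.1, 14.2 and 7.95 in Blimp-1-deficient replicates 1 to 3 (exact permutation p = 1). Control replicate 2 had 1 count of Ciita. Cd80 to Cd86 was 10.03 and 6.53 in Controls 1 and 3 and 5.68, 2.92 and 3.66 in Blimp-1-deficient libraries. Control replicate 2 had 31 counts of Cd80 and 0 of Cd86, and with 0.5 added to both counts the groups did not overlap (difference -2.02 on the log2 scale, exact permutation p = 0.1, adjusted 0.133). Without that library the difference was -1.03 (exact permutation p = 0.2, adjusted 0.267), and that of Cd74 to Ciita, 0.16 with all libraries, was 1.20 and still overlapped (exact p = 0.3, adjusted 0.3).

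Of the 52 other genes of the pathway, 47 could be tested in the Blimp-1 comparison, where 1 was higher and 1 lower with all libraries. Leaving out each library in turn gave 0 to 15 higher and 0 to 5 lower, so neither call held in every such fit. Icosl rose by 0.91 on the log2 scale (SE 0.13, adjusted p = 0.0485), with 9.73, 10.7 and 11.9 CPM among Controls and 22.5, 19.6 and 18.8 among the deficient libraries. Ctse, a protease of the endosome, fell by 3.94 (SE 0.20, adjusted p = 0.00441), from 73.1, 44.3 and 57.5 CPM to 3.95, 3.91 and 3.61 CPM. Without Control replicate 2, 15 of the 47 were higher and 5 lower, where 8.25% and 5.72% of all genes tested were. The same shares stand behind the counts of single lists without that library.

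Of the 12 genes from interferon gamma to CIITA, 6 were higher without Control replicate 2 and 0 lower. They included Ifng (log2 fold change 2.01, adjusted p = 0.031), Ifngr1 (0.62, adjusted p = 0.0095), Socs1 (0.58, adjusted p = 0.0323), Jak2 (0.53, adjusted p = 0.0147) and Ifngr2 (0.53, adjusted p = 0.00328). Ifng stood at 0.374, 0 and 0.137 CPM among Controls and 1.12, 1.19 and 0.755 among the deficient libraries. With all libraries 0 of the 12 passed, and their median log2 fold change was 0.50 in both settings.

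Of the other costimulatory ligands 4 were higher without Control replicate 2, Tnfsf4 (1.28, adjusted p = 0.0411), Icosl (0.92, adjusted p = 0.00478), Cd40 (0.79, adjusted p = 0.0449) and Cd274 (0.53, adjusted p = 0.0153). H2-Oa rose by 0.74 (adjusted p = 0.012), Ctss by 0.95 (adjusted p = 0.0101), Cd83 by 1.57 (adjusted p = 0.0276), Cxcr4 by 0.75 (adjusted p = 0.0197) and Nfya by 0.25 (adjusted p = 0.0327). March8 fell by 0.34 (adjusted p = 0.0177), Nfyb by 0.46 (adjusted p = 0.0122), Lgmn by 0.42 (adjusted p = 0.0139), Ctsd by 0.33 (adjusted p = 0.0428) and Ctse by 4.09 (adjusted p = 2.79e-05).

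Cells that present antigen express class II genes at high levels, so markers of such cells were read in the same libraries. Of 10 B cell markers, Ms4a1 had at most 2 counts in any of the 14 libraries and Pax5 at most 7. The summed B cell markers were 15.2 to 17.6 CPM in Unstimulated and 18.2 to 20.98 in IL-33 stimulated libraries, and 16.4 to 21.3 in Control and 22.4 to 28.1 in Blimp-1-deficient libraries. Cd79b made up most of each sum, with 9.53 to 23.1 CPM over the 14 libraries, and it was higher after IL-33 (log2 fold change 0.53, adjusted p = 0.0168). Of the 4 tested after IL-33, 1 was higher and 1 lower, Blk (-2.61, adjusted p = 0.0497), and without IL-33 stimulated replicate 3 Ebf1 was lower too (-1.09, adjusted p = 0.0332). Of the 6 tested in the Blimp-1 comparison 0 passed with all libraries, and Blk was higher in Blimp-1-deficient ILC2s without Control replicate 2 (1.95, adjusted p = 0.016).

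The 10 dendritic cell markers summed to 71.8 to 109 CPM in Unstimulated libraries, to 217 in IL-33 stimulated replicate 3, and to between 68.0 and 81.6 in the other stimulated libraries. Among these markers, replicate 3 had the most Flt3 (3.84 CPM against at most 0.347 elsewhere in its experiment) and Zbtb46 (13.1 CPM against at most 1.87). In that library 3 of the 10 had no count. Replicate 3 also had the most Csf1r (27.2 CPM against at most 3.33), a marker of macrophages and monocytes, and the highest H2-Aa and H2-Eb1 of its group. Of the 6 dendritic cell markers tested, 2 were higher after IL-33, Ccr7 (1.51, adjusted p = 0.00237) and Xcr1 (0.43, adjusted p = 0.00697), and Siglech had 0 counts in the whole stimulation experiment. Without replicate 3, 2 of the 6 tested were higher and 2 lower, the latter Fscn1 (-1.49, adjusted p = 0.000172) and Sirpa (-0.83, adjusted p = 0.0325). In the Blimp-1 experiment these markers summed to 98.9 to 148 CPM in Control and 111 to 125 CPM in Blimp-1-deficient libraries, the 148 in Control replicate 2. Of the 6 tested, 0 passed with all libraries, and without Control replicate 2 Fscn1 was higher (0.59, adjusted p = 0.0171) and Xcr1 lower (-0.83, adjusted p = 0.00209). The part of such cells in the members' values was not tested.

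The 12 markers of macrophages and monocytes summed to 224 CPM in Unstimulated replicate 1, 97.1 to 121 in the other Unstimulated libraries and 43.7 to 138 in stimulated ones, and 0 of the 8 tested passed. Unstimulated replicate 1, which had the highest Cd74, H2-Ab1, H2-Aa and H2-Eb1 of its group, also had the most Lyz2 (161 CPM) and Marco (16.6 CPM). In that library 3 of the 12 markers had no count. Whether macrophages or monocytes took part in the class II values of that library was not tested. Without IL-33 stimulated replicate 3, Mertk (-1.12, adjusted p = 0.011) and Cd14 (-0.94, adjusted p = 0.0364) were lower after IL-33.

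In the Blimp-1 experiment these markers summed to 32.5, 92.8 and 133 CPM among Controls 1 to 3 and 36.6, 90.2 and 120 among the deficient libraries 1 to 3. With all libraries 0 of the 12 passed, and C1qa (-1.01), C1qb (-1.68) and C1qc (-0.57) had log2 fold changes below 0. Without Control replicate 2, 4 of the 12 were higher, Adgre1 (1.87, adjusted p = 0.00427), C1qa (3.80, adjusted p = 0.0372), C1qb (4.34, adjusted p = 0.0223) and C1qc (3.74, adjusted p = 0.0183). C1qa had 0, 9.74 and 0.190 CPM among Controls 1 to 3 and 0.665, 1.42 and 2.06 among the deficient libraries 1 to 3. The part of such cells in the members' values was not tested.

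ILC3s are a further group of innate lymphoid cells that are known to carry class II. Their 6 markers summed to 5.80, 2.68 and 6.23 CPM in Controls 1 to 3 and to 29.9, 16.0 and 12.6 CPM in Blimp-1-deficient replicates 1 to 3. In the deficient libraries Cd74 and H2-Aa followed this order, while Ciita, Cd86 and H2-DMa did not. Among Controls, replicate 2 had the lowest sum and the highest Cd74 and H2-Aa. Of the 5 markers that could be tested, 1 was higher with all libraries and 2 without Control replicate 2, among them Il23r, a chain of the IL-23 receptor, which rose by 2.82 (adjusted p = 0.00441) in the latter. After IL-33 the same list had 15.9 to 25.7 CPM in Unstimulated and 6.21 to 22.2 in stimulated libraries, with 1 higher and 1 lower of the 5 tested, and a further 1 lower when stimulated replicate 3 is left out. Whether ILC3s took part in the class II values of the Blimp-1-deficient libraries was not tested. T cell markers (8 genes) summed to 51.8 to 65.4 CPM in Unstimulated and 14.6 to 28.2 in stimulated libraries, and to 24.6 to 29.9 CPM over the Blimp-1 experiment. After IL-33, 0 of the 8 were higher and 3 lower, Cd3g (-1.55, adjusted p = 0.000369), Cd4 (-1.09, adjusted p = 0.017) and Trac (-1.27, adjusted p = 0.0387), with 4 lower without IL-33 stimulated replicate 3. In the Blimp-1 comparison 0 of the 8 passed with or without Control replicate 2. The part of T cells in the members' values was not tested. Markers of epithelium and stroma (13 genes) summed to 446 to 695 CPM in Unstimulated and 252 to 435 in stimulated libraries, with 3 lower and 1 higher of the 7 tested, and 5 lower when stimulated replicate 3 is left out. In the Blimp-1 experiment they summed to 204 and 315 CPM in Controls 1 and 3, 3575 CPM in Control replicate 2 and 476 to 666 CPM in Blimp-1-deficient libraries. Of the 9 tested there, 0 passed with all libraries and 3 were higher without Control replicate 2, Krt8 (3.12, adjusted p = 0.0487), Pecam1 (1.15, adjusted p = 0.000675) and Pdgfra (1.45, adjusted p = 0.0256), and their part in the class II values was not tested.

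**Figure D5:**
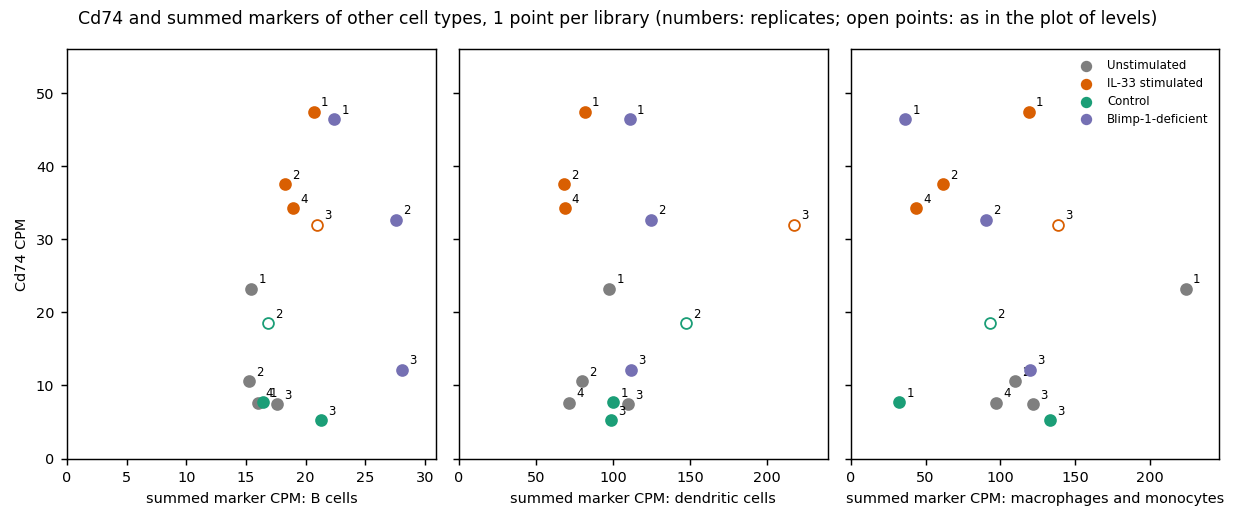
Cd74 CPM (vertical axis) against the summed CPM of markers of B cells, dendritic cells, and macrophages and monocytes (horizontal axes), 1 point per library with its replicate number and with open points for IL-33 stimulated replicate 3 and Control replicate 2. The IL-33 stimulated libraries lie above the Unstimulated ones in Cd74 and also in the B cell sum (18.2 to 20.98 against 15.2 to 17.6 CPM), their macrophage sums overlap, and stimulated replicate 3 has the highest dendritic cell sum at 217 CPM.

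Genes whose log2 CPM over the libraries was most like that of a member were sought among 12407 genes, over the 8 libraries of the stimulation experiment and over the 5 of the Blimp-1 experiment without Control replicate 2. These correlations are descriptions, since the libraries of a group share a treatment. The closest for Cd74 were Mmp12 (Pearson r = 0.979), Nme4 (0.966) and Sumo2 (0.961) after IL-33, and Trp53cor1, Gas6 and Gm12734 (r from 0.997 to 0.999) over the 5 libraries. For H2-Ab1 they were Plek (0.981), 4930509E16Rik (0.971) and Fut8 (0.970) in the former and Pdrg1, Prpsap1 and Nsd3 (r from 0.995 to 0.996) in the latter. For Ciita they were Amz1, Tctex1d2 and Med21 (r from 0.956 to 0.971) in the stimulation experiment, and Gm45133, Dexi and Pltp (r from 0.993 to 0.997) in the Blimp-1 experiment. Dexi (r = 0.993) is the gene that overlaps Ciita on the opposite strand. For Cd80 they were B3galt6, Elof1 and Mrpl18 (r from 0.989 to 0.994), and Fam43a, Sash1 and Map1b (r from 0.998 to 0.999), and for Cd86 Kif24, St6galnac2 and Mpzl3 (r from 0.988 to 0.994), and Map7, Itgal and Fbxw7 (r from 0.998 to 1.000). The stimulation values of Cd80 and Cd86 include IL-33 stimulated replicate 3, where both had 0 counts. None of these genes recurred between the experiments for the same member.

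Among the members themselves, H2-Aa and H2-Eb1 were closest over the 8 stimulation libraries (r = 0.996), and H2-Ab1 and Cd74 came next (r = 0.970). Over those libraries H2-DMb1 (r = -0.542) and Cd86 (r = -0.659) ran opposite to H2-Aa. Both had 0 counts in IL-33 stimulated replicate 3, where H2-Aa was highest, and without that library they stood at r = 0.0852 and -0.340. Over the 5 Blimp-1 libraries without Control replicate 2 the same pairs stood at r = 0.436 and 0.815. These values are descriptions over libraries that differ in treatment and depth.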

How the data were processed

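RNA-seq was performed on 14 ILC2 libraries, 8 of the stimulation and 6 of the Blimp-1 experiment. Trimming was by cutadapt and alignment to GRCm38 by HISAT2, and the authors deposited whole-number counts per gene, and TPM made from those counts and the deposited gene length, in 1 table per experiment. The submitters' processing notes also name Bowtie2, DESeq2 and Subread. From the counts, each experiment was fitted with edgeR 4.0.16 (quasi-likelihood test, TMM, R 4.3.3) over all genes that passed filterByExpr, with Benjamini-Hochberg adjustment over all of them and a threshold of 0.05. Groups were compared within an experiment only, each library being 1 sorted sample, so p-values measure the spread between sorted samples. TPM were also rescaled after leaving out 7 loci that dominated Control replicate 2.

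The 9 members are all named, as are main pathway and marker genes that passed and the nearest 3 genes by correlation. Some genes of the lists are counted but not reported here by name. Members and lists were chosen with earlier results of these data known. The count ratios, and the letters searched in promoters, were chosen after seeing the data. The fits were tested on simulated data. Alternatives were DESeq2 1.42.0, RLE and library-size scaling, 2 filters, limma 3.58.1 on log2 TPM, a replicate block and leaving out each library. Intervals are 95% intervals of the fitted fold change. Promoter sequences came from RefSeq (GRCm38.p6).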

Additional observations from a re-analysis of the deposited data

Results flagged for a closer look

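In groups of 4 libraries, 3 values of genes described here lay far from the rest of their group, by the gap to the nearest library over the range of the group (Dixon's critical value for 4 libraries). Chance flags about 1 in 20 groups, and the genes described here make up many groups, so some such flags are expected by chance. Cd80 had 0 CPM in IL-33 stimulated replicate 3, the shallowest library of the stimulation experiment. March8 stood at 32.0 CPM in that library too. Mif stood at 136.7 CPM in Unstimulated replicate 1.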

How the results depend on the processing

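H2-Ab1 and Cd74 after IL-33 passed in all 17 alternatives (log2 fold change 1.17 to 1.97 and 1.41 to 2.20), H2-Eb1 in 6 and H2-Aa in 4. Leaving out each library gave 2 to 5 members higher after IL-33, the 5 without IL-33 stimulated replicate 3, and 0 to 5 in Blimp-1-deficient ILC2s, the 5 without Control replicate 2. In the Blimp-1 comparison DESeq2 called 3 members higher and edgeR with library size alone called 3, each H2-Aa, H2-Eb1 and Cd86. In every alternative 0 members were lower. Over all alternatives, 8 to 14 genes of the pathway lists were higher and 8 to 18 lower after IL-33, and 0 to 15 higher and 0 to 5 lower in Blimp-1-deficient ILC2s. The 16 to 18 lower came from limma on TPM, and the 15 and 5 from leaving out Control replicate 2, where DESeq2 with all libraries gave 11 and 3.

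H2-DMa after IL-33 turned to -0.10 with limma on log2(TPM + 1), -0.11 on log2(TPM + 0.1) and -0.0853 on log2(TPM + 1) without 7 loci, above the median over all genes tested of -0.25, -0.29 and -0.23. In Blimp-1-deficient ILC2s, H2-DMa and H2-DMb1 turned to 0.34 and 0.32 with library size alone. With limma they turned to 1.12 and 0.71 on log2(TPM + 1), 1.46 and 1.28 on log2(TPM + 0.1), and 0.19 and 0.12 without 7 loci. Over all genes tested the median shifted to 0.45, 1.28, 1.69 and 0.42 in those settings, above both genes in each.

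With the replicate number as a block, 2 members were higher after IL-33 (H2-Ab1 and Cd74, with H2-Eb1 at an adjusted p of 0.0716 by edgeR) and 0 in Blimp-1-deficient ILC2s. Same-numbered libraries are of separate mice in the design text and correlated at -0.14 to 0.28 and at -0.13 to 0.12, so the numbers were not taken as a pairing. Cd86 had at most 14 counts and Ciita at most 43 per stimulation library, and Cd80, Cd86 and H2-DMb1 had 0 in IL-33 stimulated replicate 3.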
